A study of Mus musculus with 19 samples.

Results

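The caveolin, clathrin adaptor and endosome genes followed here are Cav1, Dab2, Lrp2, Eea1 and Ehd3, 5 genes chosen by symbol from the 4213 genes that the deposited tables list at any day. They were followed in P19CL6 cells, a mouse embryonal carcinoma line whose undifferentiated tumour cells can be driven towards beating heart muscle. RNA was profiled by tag counting, in which a short tag stands for each transcript molecule, at days 1, 4, 7, 10 and 14 of differentiation. There were 4 libraries at each of days 4, 7, 10 and 14 and 3 libraries at day 1, 19 in all, every one from this line, with no genotype, transfection or inducing agent named in the labels, and the study's design text reports beating cells at day 14. The labels do not say whether same-day libraries came from separate cultures.

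Endocytosis carries membrane and its receptors into the cell by several routes. In caveolae, small flask-shaped pits, the coat is built from caveolins such as Cav1 and from cavins. In coated pits, adaptors such as Dab2 link receptors to clathrin, and Dab2 binds the tails of receptors of the lipoprotein receptor family, of which Lrp2 (megalin) is a large member. Vesicles then fuse with early endosomes, where Eea1 tethers membranes together with the small GTPase Rab5, and EHD proteins such as Ehd3 shape the tubules that return cargo to the surface. By its title, the study concerns TGF-β signals and uptake at the ciliary pocket, and Dab2, caveolin and early endosomes are known from studies of TGF-β receptor traffic.

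The upstream sequence of the 3 genes with values at 3 or more later days is shown first, since these have the fullest time courses. Each is the 250 bases before the annotated start, from RefSeq on build GRCm38.p6, 5′ to 3′ on the gene's strand: Cav1 at chr6:17306085-17306334 (+ strand), Lrp2 at chr2:69586030-69586279 (- strand) and Ehd3 at chr17:73804591-73804840 (+ strand). Tags were assigned on mm9, so these positions are not on the build of the tables. Capitals mark 3 motifs searched on both strands: GGGCGG, the GC box of Sp-type factors, CAGAC, a core of SMAD binding elements, and the TATA box TATAAA.
Cav1: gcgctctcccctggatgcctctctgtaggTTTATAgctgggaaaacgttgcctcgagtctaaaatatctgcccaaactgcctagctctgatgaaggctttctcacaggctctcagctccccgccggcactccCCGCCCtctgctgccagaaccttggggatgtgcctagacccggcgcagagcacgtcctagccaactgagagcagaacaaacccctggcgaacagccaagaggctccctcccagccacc
Lrp2: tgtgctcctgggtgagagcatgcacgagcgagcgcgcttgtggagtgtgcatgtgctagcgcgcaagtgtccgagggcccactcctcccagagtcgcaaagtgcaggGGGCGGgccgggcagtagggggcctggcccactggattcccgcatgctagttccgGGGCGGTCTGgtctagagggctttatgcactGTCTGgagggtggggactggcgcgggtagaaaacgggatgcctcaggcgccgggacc
Ehd3: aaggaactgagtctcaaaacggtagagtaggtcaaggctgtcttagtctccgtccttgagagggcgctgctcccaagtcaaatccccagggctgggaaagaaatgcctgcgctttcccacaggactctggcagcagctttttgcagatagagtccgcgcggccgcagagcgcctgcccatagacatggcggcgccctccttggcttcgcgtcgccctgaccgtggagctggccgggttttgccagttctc
The Cav1 window, the first of 2 annotated for the gene and the one that starts at the tables' transcript, held 1 GC box and 1 TATAAA match and had a GC content of 59.6%. The Lrp2 window held 2 GC boxes and 2 CAGAC matches, one of each sharing bases, at a GC content of 66.4%. None of the 3 motifs was found in the Ehd3 window, whose GC content was 60%. Over 32851 windows of the same length, 32.7% held the GC box, 42.2% CAGAC and 12.4% TATAAA, and the median GC content was 52.4%. The second Cav1 window held 2 CAGAC matches and neither of the other motifs. The Eea1 window held 2 GC boxes, and Dab2 had 2 annotated windows, each with 1 CAGAC match. The starts of the second Cav1 window, the Eea1 window and both Dab2 windows were not matched to the transcripts that the tables name. The start of the Lrp2 window lies 36 bases inside the tables' transcript, so that window is not wholly upstream of it. A match is a description of the letters only.

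Levels are the authors' TPM (tag counts scaled to library size), as means over a day's libraries. The tables hold a gene at a later day only where it differed from day 1 by at least 2-fold, the smallest change in them, and passed the authors' FDR filter, per the design text, so "listed" is the authors' call, and a gene not listed at a day has no value there. No value of a single library is in the tables, so the spread between replicates is unknown and no test between days was possible. Folds were taken from the tags summed over the libraries of a day, and the 95% intervals in brackets are exact and cover counting error only. Day 1 rests on 1.74e+07 tags over its 3 libraries, and the later days on 2.29e+07 to 2.38e+07 tags each. In such bulk samples fewer cells of a type and less RNA per cell cannot be told apart.

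The 5 genes split into 3 first listed as higher at different days and 2 listed as lower at every later day. Cav1 was listed as higher from day 7, Dab2 from day 10 and Eea1 at day 14, while Lrp2 and Ehd3 were listed as lower at all 4 later days. This is an order of listing, and when each gene began to rise is not known. At day 4, 0 of 5 were listed as higher and 2 as lower, against 21.3% and 20.9% of all 4213 genes (42.2% listed either way). At day 7, 1 was listed as higher and 2 as lower, against 25.9% and 14.9% of all genes (40.8% either way). The counts at day 10 were 2 higher and 2 lower, against 40.2% and 14.2% of all genes (54.4% either way). At day 14 they were 3 higher and 2 lower, against 49.8% and 17.2% (67% either way). With 5 genes these shares are a description and were not tested.

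**Figure D1:**
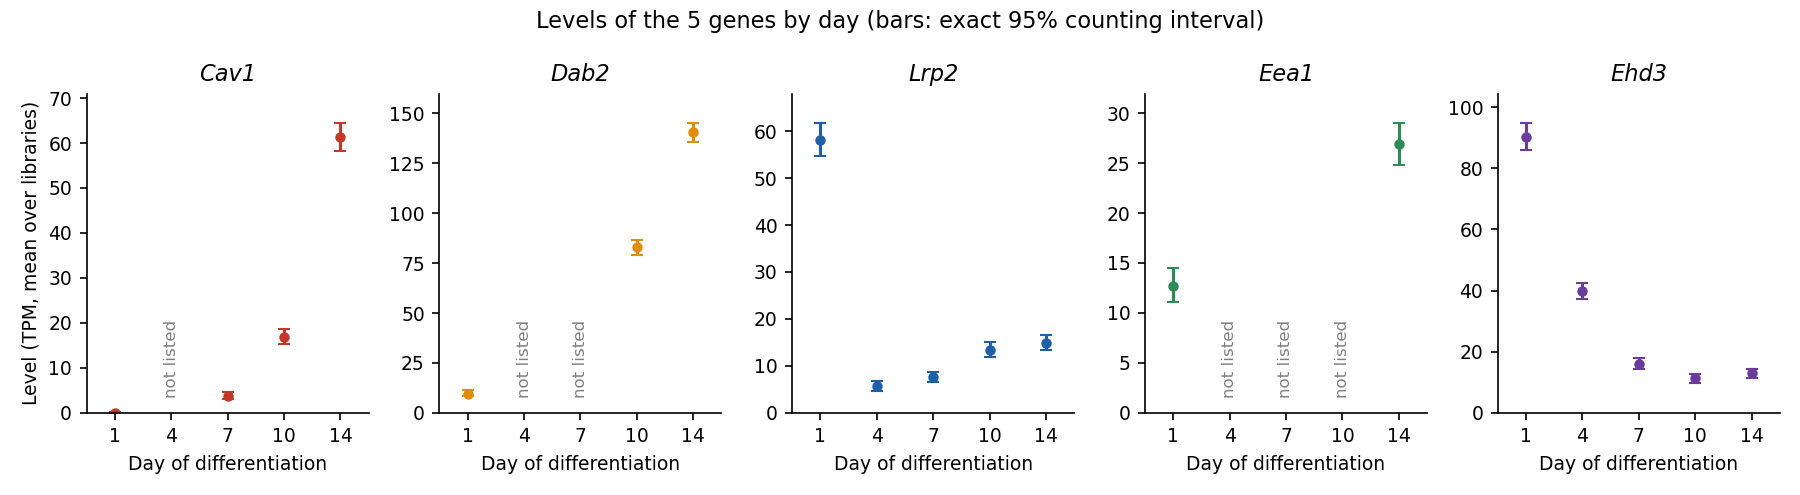
Level (TPM, the authors' mean over the libraries of a day) of each gene against day of differentiation; points are day values and bars exact 95% counting intervals, and days without a value are marked as not listed. Cav1 and Dab2 reach their highest listed level at day 14, Lrp2 is lowest at day 4 and Ehd3 at day 10.

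Cav1 (Entrez Gene 12389), the gene for the main coat protein of caveolae, was undetected at day 1 and highest at day 14. It had 0 tags at day 1, which allows up to 0.212 TPM, no listed value at day 4, 3.73 TPM at day 7, 16.9 TPM at day 10 and 61.3 TPM at day 14. The listed levels rose at each step, and the counting intervals of the 4 days with a value do not overlap. Summed over libraries, Cav1 had 0 tags at day 1 (3 libraries) and 87, 386 and 1462 tags at days 7, 10 and 14 (4 libraries each). Taken against a floor of 3 tags over those 3 libraries, Cav1 was at least 21.6-fold higher at day 7 than at day 1. On the same floor it was at least 97.9-fold higher by day 10 and at least 356-fold higher by day 14. The lower 95% limits from counting error, which lie below these bounds, were 17.2-fold, 79.3-fold and 289-fold.

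Between later days, where no floor is needed, Cav1 was 4.53-fold higher at day 10 than at day 7 (3.58 to 5.78) and 3.64-fold higher at day 14 than at day 10 (3.25 to 4.08). Its rise at day 14 was the 11th largest of the 2100 listed at that day, with genes at 0 tags ranked at the floor, against the 150th of 1090 at day 7. The absence of Cav1 from the day 4 table sets no value: the smallest mean count on the higher side of any gene listed there was 13 tags. Of the 4213 genes, 407 shared the listing pattern of Cav1, higher at days 7, 10 and 14 and not listed at day 4. Of these, 50 had 0 tags at day 1, and 25 of the 50 also rose at each listed step.

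The 3 genes closest to Cav1 in the log2 ratio of the authors' deposited tables over days 7, 10 and 14, out of 493 at or above the median abundance, were the co-receptor gene Nrp1 and the homeobox genes Hoxc6 and Hoxd10. Their mean absolute differences from Cav1 were 1.70, 1.82 and 2.43 on the log2 scale. All 3 had 0 tags at day 1, and each reached its highest level earlier: Nrp1 stood at 28.4, 61.7 and 49.4 TPM at days 7, 10 and 14, and Hoxc6 at 43.1, 38 and 36.2 TPM. Cav1 itself was below the median abundance at days 7 and 10, so the limit left out genes of its abundance at those days. The earlier peaks of these 3 genes are therefore partly set by the limit. The ratio of the authors' deposited tables sets 0 tags to 0.01 TPM, which groups genes that start from 0. Without the abundance limit, an alternative added after the data were seen, 1052 genes could be compared, and the closest were the netrin receptor gene Unc5c, the cadherin gene Fat4 and the troponin gene Tnni1, at 0.28, 0.58 and 0.63. Each of these had 0 tags at day 1 and was highest at day 14: Unc5c stood at 3.81, 19.8 and 41.2 TPM at days 7, 10 and 14, and Tnni1 at 5.57, 41.6 and 61.7 TPM.

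Among the other caveola genes, 2 of the 9 besides Cav1 were listed at any day, both as higher. All 3 caveola genes listed at any day were thus higher at day 14, against 49.8% of all 4213 genes. These 3 include Cav1 itself and a gene listed at day 14 only, so the share is a description and was not tested. Ptrf (cavin 1), the coat protein that caveolae need beside caveolin, stood at 5.11 TPM at day 1 and at 22.1, 22.2 and 29 TPM at days 7, 10 and 14. That is 4.33-fold higher at day 7 than at day 1 (3.46 to 5.49) and 5.68-fold higher at day 14 (4.55 to 7.17). Sdpr (cavin 2) was listed at day 14 only, at 2.22 TPM on 53 tags, against 0.12 TPM on 2 tags at day 1, 19.4-fold higher (5.10 to 164). Ptrf thus had tags at day 1 and was level between days 7 and 10, a step at which Cav1 rose. Both Ptrf and Cav1 stood higher at day 14 than at day 10.

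Cav1 is also a marker of endothelium, and the markers of that list moved differently at the end. Of the 12 endothelial markers besides Cav1, 7 were listed as higher and 1 as lower at day 10, and 5 as higher and 1 as lower at day 14. With Cav1 counted, 88.9% of the 9 markers listed at any day were higher at day 10 and 66.7% at day 14, and 11.1% lower at both. All 4213 genes gave 40.2% and 49.8% higher, and 14.2% and 17.2% lower. Cdh5, the vascular cadherin gene, had 0 tags at day 1 and stood at 6.98, 24 and 8.98 TPM at days 7, 10 and 14. Over the 6 endothelial markers listed at both days, the summed level was 37.5 TPM at day 14 and 69.2 TPM at day 10, and 0 of the 6 were higher at day 14, while Cav1 was 3.64-fold higher at day 14. Fibroblast and epicardial markers listed at both days summed to 86.5 TPM at day 14 and 32.2 TPM at day 10 (4 genes, all higher at day 14), and the 8 cardiomyocyte markers to 576 and 124 TPM. Smooth muscle markers gave 113 TPM at day 14 and 124 TPM at day 10 (2 genes). The part of these cell types in the Cav1 level was not tested.

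**Figure D2:**
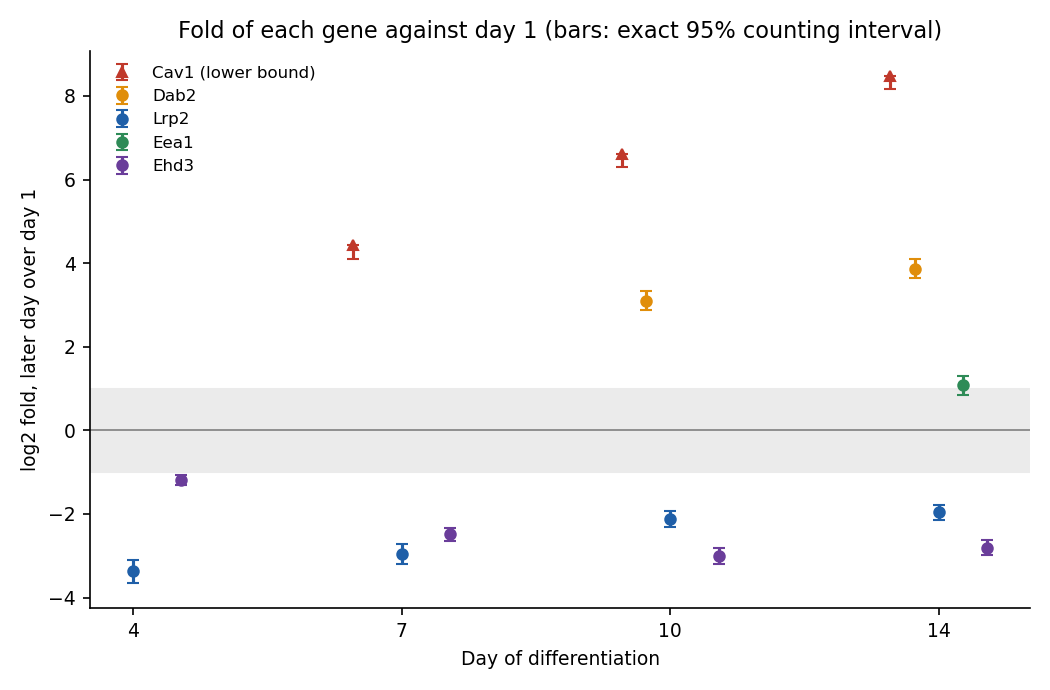
Fold of each gene against day 1 (log2, vertical axis) at days 4, 7, 10 and 14; bars are exact 95% counting intervals, triangles are lower bounds for Cav1, which had 0 tags at day 1, and the grey band is the range below the 2-fold limit of the tables. Cav1 and Dab2 lie above the band where listed, Eea1 lies at its upper edge, and Lrp2 and Ehd3 lie below it at every later day.

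Dab2 (13132), the clathrin adaptor gene, was listed only at days 10 and 14, as higher. It stood at 9.64 TPM at day 1, had no listed value at days 4 and 7, and reached 83 TPM at day 10 and 141 TPM at day 14. These levels come from 168 tags at day 1, 1899 at day 10 and 3352 at day 14. Dab2 was 8.60-fold higher at day 10 than at day 1 (7.34 to 10.1), 14.6-fold higher at day 14 than at day 1 (12.5 to 17.1) and 1.70-fold higher at day 14 than at day 10 (1.60 to 1.79). Among the genes listed as higher, 26.7% had a larger rise than Dab2 at day 10 and 21.3% at day 14. The pattern of Dab2, higher at days 10 and 14 and not listed before, was shared by 510 of the 4213 genes, and 352 of these had their higher level at day 14.

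The clathrin coat and adaptor list, 48 genes with Dab2, held 4 genes listed as higher and 0 as lower at day 4, 3 and 1 at day 7, 7 and 3 at day 10, and 10 and 0 at day 14. Day 14 makes that 71.4% higher and 0% lower of its 14 genes listed at any day. All 4213 genes gave 49.8% and 17.2% at day 14, and the difference was not tested. In the authors' deposited table the median log2 ratio of those listed was 1.51 at day 14, against 1.59 over all listed genes. Amph (amphiphysin 1), which brings dynamin to the necks of pits, stood at 6.20 TPM at day 1, 79.7 TPM at day 4, 18.2 TPM at day 7 and 14.3 TPM at day 14, 12.9-fold higher at day 4 than at day 1 (10.6 to 15.8). Bin1 (amphiphysin 2) was listed as higher at all 4 later days, with 10.1 TPM at day 1 and 20.6, 30.3, 26.6 and 27.6 TPM at days 4, 7, 10 and 14. Dnm1, a dynamin gene, was listed at day 14 only, at 50.1 TPM, against 17 TPM at day 1, 2.95-fold higher (2.60 to 3.36). The sorting nexin gene Snx18 was also listed at day 14 only, at 67 TPM, against 25.5 TPM at day 1, 2.63-fold higher (2.36 to 2.93).

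Some genes of this list, Myo6, Snap91, Fcho2 and Eps15l1, shared the days of Dab2, a pattern of 510 of all 4213 genes. They were singled out after their values were seen, and a link with Dab2 was not tested. Myo6, the gene for the myosin that Dab2 links to endocytic vesicles, stood at 3.73 TPM at day 1 and at 11 and 15.1 TPM at days 10 and 14, 4.04-fold higher at day 14 (3.09 to 5.34). Fcho2, an early coated pit protein gene, stood at 22.3, 51.3 and 46.4 TPM at days 1, 10 and 14. Eps15l1, a clathrin adaptor partner gene, stood at 24.2, 50.9 and 53.1 TPM at the same days, and Snap91 at 4.19, 10.2 and 13.3 TPM. The related adaptor gene Dab1 was listed only at day 10, as lower, at 4.98 TPM, against 16.9 TPM at day 1, 3.40-fold lower (2.73 to 4.26). Cltc, the clathrin heavy chain gene, and the genes of the AP2 adaptor complex were not listed at any day.

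Dab2 and Lrp2 are also markers of primitive, parietal and visceral endoderm. Of the 18 other genes of that list, 2, 5, 8 and 11 were listed as higher at days 4, 7, 10 and 14 and 0 as lower. With Dab2 and Lrp2 counted, 92.3% of the 13 listed at any day were higher at day 14 and 7.69% lower. All 4213 genes gave 49.8% and 17.2%. The 2 higher at day 4 were the laminin genes Lama1 and Lamb1. Without Dab2 and Lrp2, the genes listed at day 14 summed to 325 TPM at day 14, against 79.3 TPM at day 1, and 5 of the 11 had 0 tags at day 1. Most of both sums came from the collagen and laminin genes Col4a2, Lamb1 and Col4a1. These stood at 99.4, 88.3 and 81 TPM at day 14, against 24.6, 29.2 and 23.5 TPM at day 1. The transcription factor gene Sox17 stood at 8.74 TPM at day 10 and 6.92 TPM at day 14, and the yolk sac genes Afp and Ttr at 3.65 and 2.18 TPM at day 14, each from 0 tags at day 1. Over the 8 markers listed at both days, Col4a2, Lamb1 and Col4a1 included, the sum was 308 TPM at day 14 and 312.5 TPM at day 10. Dab2 was 1.70-fold higher at day 14 than at day 10. Lrp2, in contrast to the markers listed, was lower at every later day than at day 1, though it was 2.66-fold higher at day 14 than at day 4. The part of endoderm cells in either level was not tested.

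Lrp2 (14725), the gene for the endocytic receptor megalin, dropped before day 4 and then regained part of its level. It stood at 58.2 TPM at day 1 and at 5.63, 7.54, 13.4 and 15 TPM at days 4, 7, 10 and 14. All later days lie below day 1, and the lowest is day 4. The summed tags were 1013 over the 3 libraries of day 1 and 132, 176, 307 and 357 over the 4 libraries of each later day. Lrp2 was 10.3-fold lower at day 4 than at day 1 (8.61 to 12.5), 7.71-fold lower at day 7 (6.57 to 9.11), 4.34-fold lower at day 10 (3.81 to 4.94) and 3.88-fold lower at day 14 (3.44 to 4.39).

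The return of Lrp2 after day 4 was larger than counting error. It was 1.34-fold higher at day 7 than at day 4 (1.06 to 1.69), 1.78-fold higher at day 10 than at day 7 (1.47 to 2.15), and 2.66-fold higher at day 14 than at day 4 (2.17 to 3.27). Days 14 and 10 did not differ beyond counting error, at 1.12-fold (0.956 to 1.31). By level alone, counting error aside, 37 of the 197 genes listed as lower at all 4 days were lowest at day 4. Of these 37, 4 (Lrp2 included) also stood higher at each later step. Lrp2 had the 29th largest of 880 falls at day 4 and the 167th of 723 at day 14, again with genes at 0 tags ranked at the floor.

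The genes closest to Lrp2 in the authors' deposited tables over the 4 days, out of 219 at or above the median abundance, were Chchd10, a mitochondrial protein gene, the phospholipase gene Pla2g16, and Pbld. Their mean absolute differences were 0.43, 0.56 and 0.66 on the log2 scale. Chchd10 stood at 986 TPM at day 1 and at 205, 144, 179 and 237 TPM at days 4, 7, 10 and 14, with its lowest value at day 7. None of the 3 was lowest at day 4. Without the abundance limit, out of 555 genes, the closest were 2210411K11Rik, AI661453 and Aass, a lysine breakdown enzyme gene, at 0.30, 0.33 and 0.42, and all 3 were lowest at day 4. Aass stood at 21.3 TPM at day 1 and at 3.88, 4.11, 5.59 and 5.54 TPM at days 4, 7, 10 and 14.

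The lipoprotein receptor family and its partners, 18 genes with Lrp2, split at every day: 2 listed as higher and 2 as lower at day 4, 3 and 2 at day 7, 2 and 3 at day 10, and 3 and 3 at day 14. Its 7 genes listed at any day were thus 42.9% higher and 42.9% lower at day 14, against 49.8% and 17.2% of all 4213 genes. In the authors' deposited table the median log2 ratio of those listed was 0.014 at day 14, against 1.59 over all listed genes. No listed gene changed by less than 1 on this scale. The median is only the midpoint between Lrp4 at 1.20 and Lrp8 at -1.17, and describes no gene of the list. Vldlr, the very-low-density lipoprotein receptor gene, was listed as higher at all 4 later days, with 3.90 TPM at day 1 and 37.7, 9.42, 12.4 and 35.5 TPM after it, 9.08-fold higher at day 14 (7.09 to 11.8). Its high values are at days 4 and 14, with lower ones between. Lrp8, the apolipoprotein E receptor 2 gene, stood at 19.5 TPM at day 1 and was listed as higher at day 4, at 48.7 TPM, and as lower at days 10 and 14, at 9.52 and 8.64 TPM. Cubn and Amn, which form the cubilin complex that works with megalin, were not listed at any day.

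Eea1 (216238), the early endosome tether gene, was listed at day 14 only. It stood at 26.9 TPM at day 14 on 641 tags, against 12.7 TPM at day 1 on 222 tags, 2.11-fold higher (1.81 to 2.47). This is close to the 2-fold limit of the tables, and the lower limit of the interval is below it. Of the 2100 genes listed as higher at day 14, 94.9% rose by more. Being listed at day 14 only, as higher, was the pattern of 584 genes, 13.9% of the 4213. Eea1 has no value at days 4, 7 and 10, so whether it differed from day 1 by less than 2-fold at those days is not known.

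Of the 28 genes of the early endosome list, Eea1 included, 4 were listed at any day. Appl2, a Rab5 effector gene of a separate early endosome class, was higher at all 4 later days, with 10.2 TPM at day 1 and 46.6, 30.4, 35.7 and 43 TPM after it, 4.23-fold higher at day 14 (3.60 to 4.99). Rin3, which activates Rab5, had 0.12 TPM on 2 tags at day 1 and 2.56, 5.10, 5.42 and 2.48 TPM at days 4, 7, 10 and 14, 21.6-fold higher at day 14 (5.71 to 182). Rabep2, a Rab5 effector gene, stood at 18.3 TPM at day 1 and was listed as lower at days 4 and 7, at 7.93 and 7.49 TPM. The Rab5 genes and Zfyve9, the gene for the SMAD anchor of early endosomes, were not listed at any day.

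**Figure D3:**
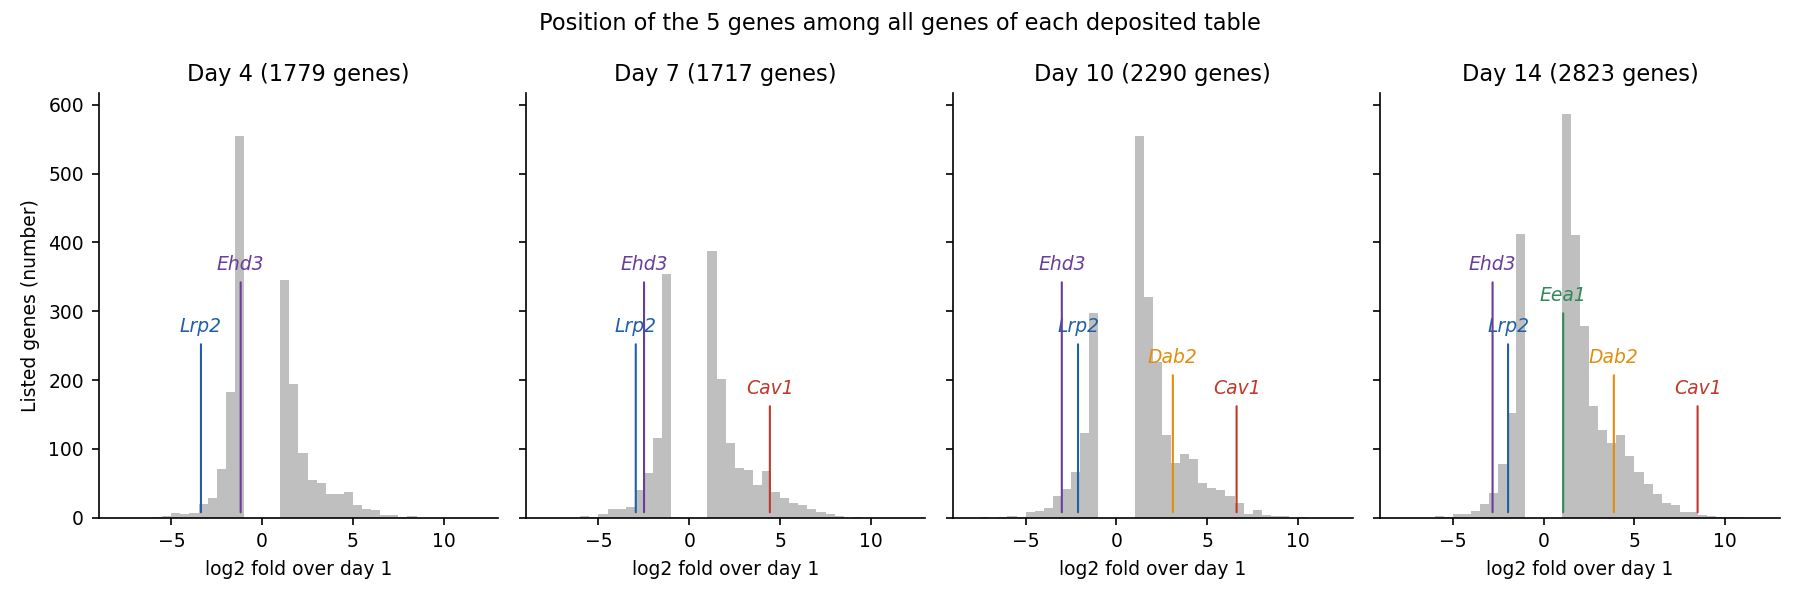
Number of listed genes (vertical axis) by log2 fold over day 1 (horizontal axis) in each deposited table, with 0 tags set to a floor of 3; lines mark the genes of this account. The gap in the middle is the tables' 2-fold limit; Eea1 lies beside it at day 14, and Cav1 moves to the far right, the 11th largest rise of 2100.

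Ehd3 (57440), one of 4 EHD genes for membrane-bending ATPases of recycling endosomes, fell in steps to day 10. It stood at 90.4 TPM at day 1 and at 39.8, 16.1, 11.2 and 12.9 TPM at days 4, 7, 10 and 14, on 1574, 933, 375, 257 and 307 tags. Every later day is below day 1. In TPM the largest step down was from day 1 to day 4, while as folds the steps to day 4 and to day 7 were similar. Ehd3 was 2.27-fold lower at day 4 than at day 1 (2.09 to 2.46), 5.63-fold lower at day 7 (5.02 to 6.31), 8.05-fold lower at day 10 (7.05 to 9.22) and 7.02-fold lower at day 14 (6.20 to 7.95). It was 2.48-fold lower at day 7 than at day 4 (2.20 to 2.80) and 1.43-fold lower at day 10 than at day 7 (1.22 to 1.68). Days 14 and 10 did not differ beyond counting error, at 1.15-fold (0.969 to 1.36).

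Ehd3 and Lrp2 share the listing pattern of 197 genes but not its time course. Of those genes, 54 had their lowest level at day 10, as Ehd3 did, and 12 had the same order of the later days as Ehd3, counting error aside. At day 4, 66.8% of the 880 falls were larger than that of Ehd3, and at day 14 7.88% of 723. The closest genes in the authors' deposited tables over the 4 days, out of 219 at or above the median abundance, were Rbpms2, an RNA-binding protein gene, Pdzd4, and Cbx7, a Polycomb protein gene, at mean absolute differences of 0.21, 0.22 and 0.28 on the log2 scale. Rbpms2 stood at 209 TPM at day 1 and at 64, 35.8, 28.1 and 33.1 TPM at days 4, 7, 10 and 14, also lowest at day 10. Rbpms2 and Pdzd4 remained the closest without the abundance limit.

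The other genes of the EHD family were listed less. Ehd1 was listed at day 4 only, at 38.6 TPM, against 92.1 TPM at day 1, 2.39-fold lower (2.20 to 2.59). Ehd4, named here after its values were seen, was also listed at day 4 only, at 2.90 TPM, against 8.09 TPM at day 1, 2.79-fold lower (2.07 to 3.78), and Ehd2 at no day. Whether tags of one EHD gene could be assigned to another is not given in the sources used here. Over the whole recycling list of 35 genes, 2 were listed as higher and 4 as lower at day 4, 3 and 2 at day 7, 4 and 1 at day 10, and 6 and 1 at day 14. Counted over its 12 genes listed at any day, 50% were higher and 8.33% lower at day 14, against 49.8% and 17.2% of all 4213 genes. Ehd3 was the 1 gene of that list lower at days 10 and 14. Tfrc, the transferrin receptor gene, a classical recycling cargo, stood at 231 TPM at day 1 and at 103 and 94.7 TPM at days 4 and 7. Rab11b, a GTPase gene of the recycling endosome, stood at 281 TPM at day 14, against 106 TPM at day 1, 2.65-fold higher (2.52 to 2.80). The retromer-linked sorting nexin gene Snx1 stood at 37.2 TPM at day 1 and at 84.9, 85.7 and 84.5 TPM at days 7, 10 and 14.

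Markers of the starting cells were, like Lrp2 and Ehd3, listed as lower, while neural markers went both ways. Of 11 markers of undifferentiated embryonal carcinoma cells, 4, 5, 5 and 5 were listed as lower at days 4, 7, 10 and 14 and 0 as higher. Day 14 makes that 83.3% lower of the 6 listed at any day, against 17.2% of all 4213 genes. The 5 listed at day 14 summed to 301 TPM at day 14, against 2962 TPM at day 1, and none of them was at 0. Of 13 neural markers, 5, 6, 5 and 3 were listed as lower and 0, 1, 1 and 3 as higher at these days. Among the 10 listed at any day, 30% were higher and 30% lower at day 14, against 49.8% and 17.2% of all genes. The neural markers listed at both of the last days summed to 57 TPM at day 14 and 21.7 TPM at day 10 (4 genes, all higher at day 14). At day 1 these 4 genes summed to 185 TPM. Against day 1, Sox1 was higher at day 14, and Stmn2, Nefm and Nefl were lower. The part of either cell type in the Lrp2 and Ehd3 levels was not tested.

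Around the 5 genes, most genes of the wider endocytic machinery were not listed. How many genes of any kind were measured is not given in the sources used here, so this share has no background. The 6 endocytosis lists hold 161 other genes, of which 51 were listed at any day; at day 14, 32 were listed as higher, 3 as lower and 126 not at all. Of these 51, 29.4% were higher and 13.7% lower at day 4, 31.4% and 9.80% at day 7, 39.2% and 13.7% at day 10, and 62.7% and 5.88% at day 14. The same shares over all 4213 genes at day 14 were 49.8% and 17.2%, and the difference was not tested. In the authors' deposited table the median log2 ratio of those listed at day 14 was 1.56, against 1.59 over all listed genes. Of the 30 genes of the late endosome and lysosome list, 10 were listed as higher and 1 as lower at day 14. As a share of its 16 genes listed at any day, 62.5% were higher and 6.25% lower, beside the same 49.8% and 17.2% of all genes.

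In this list, Igf2r, the receptor gene that carries lysosomal enzymes and clears IGF2, rose at each step, with 12.9 TPM at day 1 and 28.2, 48.1, 85 and 105 TPM at days 4, 7, 10 and 14, 8.18-fold higher at day 14 (7.13 to 9.42). The lysosomal membrane gene Lamp2 stood at 16.5 TPM at day 1 and at 62.4, 64.8, 90.8 and 93.3 TPM after it, 5.64-fold higher at day 14 (4.99 to 6.40). The tetraspanin gene Cd63, a late endosome marker, stood at 28.4 TPM at day 1 and was highest at day 7, at 139 TPM, with 85 TPM at day 14.

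**Figure D4:**
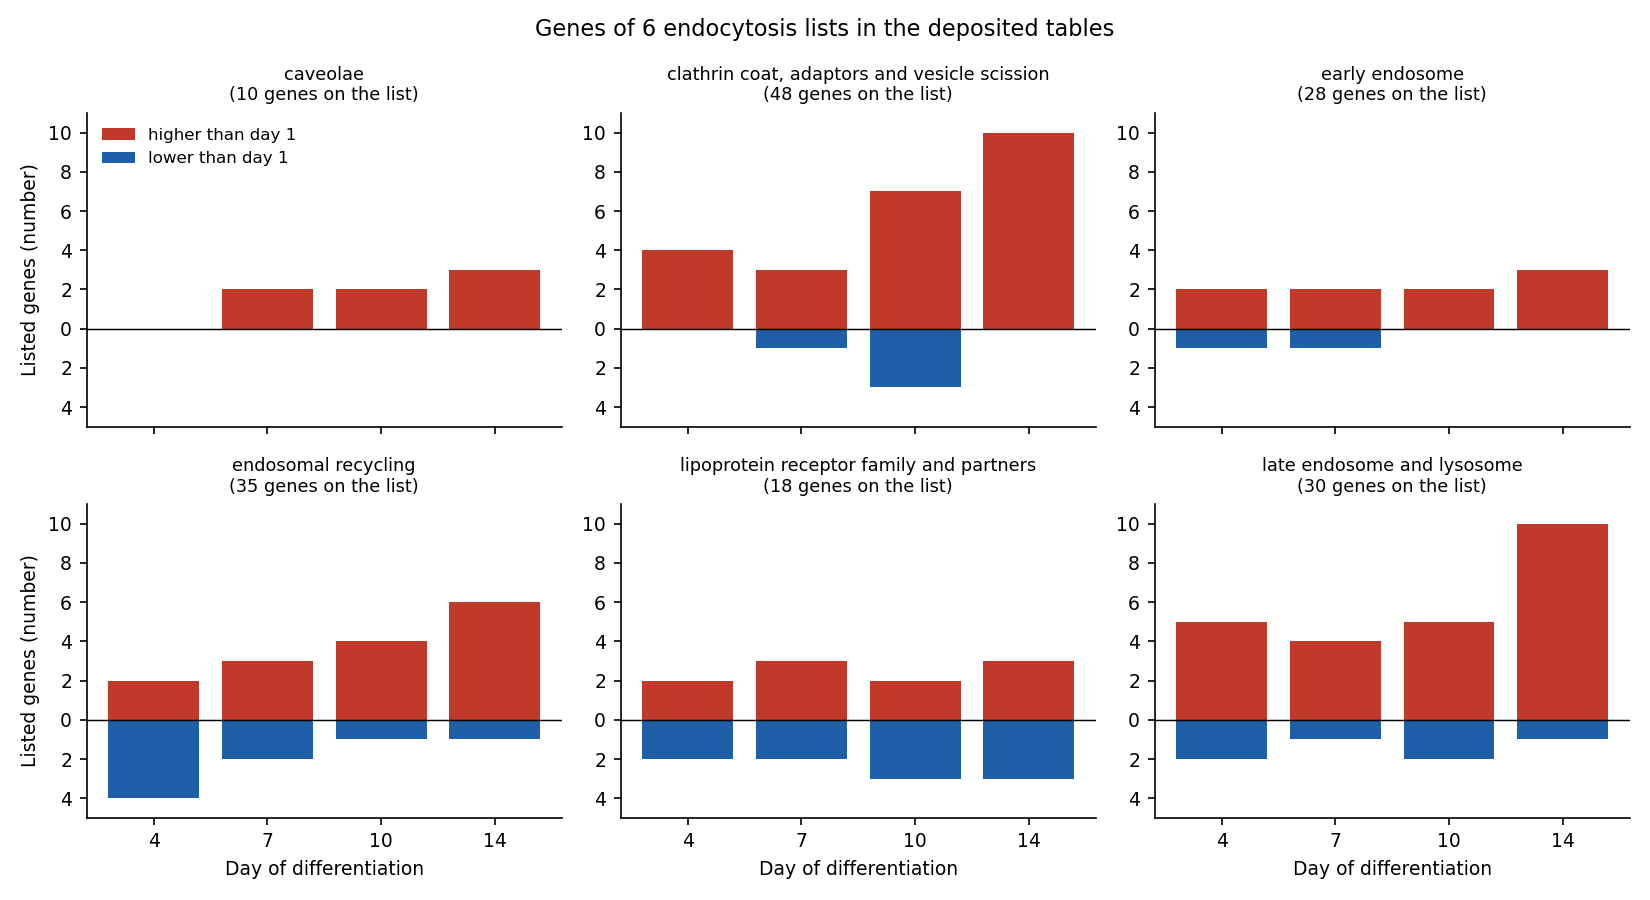
Number of genes listed as higher (red, upwards) or lower (blue, downwards) than at day 1 in the deposited tables, by day of differentiation, for 6 endocytosis lists. The clathrin and lysosome lists reach 10 higher genes each at day 14, while the lipoprotein receptor list has 3 higher and 3 lower.

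The tables' own pathway column gives Endocytosis for 4 of the 5 genes, Lrp2 being annotated to hedgehog signalling instead. Of the 114 genes with that annotation, 21 were listed as higher and 19 as lower at day 4, 28 and 11 at day 7, 53 and 15 at day 10, and 63 and 15 at day 14. At day 14 this is 55.3% higher and 13.2% lower, against 49.8% and 17.2% of all 4213 genes. Shares near those of all genes are no result about the annotation.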

How the data were processed

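Day 1 was compared with each later day in 4 deposited tables, whose values the authors averaged over the libraries of a day. Libraries were made with Illumina's DGE Tag Profiling Kit (version 2.1B), per the labels' protocols. The build was mm9, per the submitters' processing notes, and no aligner, tag-to-gene rule or test is named (not given in the sources used here). Per the file headers, the tables hold raw tag counts (means), TPM and the log2 ratio of TPM, later day over day 1. In the deposited TPM, 0.01 stands for 0 tags and was read as 0. The deposited columns headed P-Value and FDR, treated as scores, were not used: they exceed 1 for 12.0% to 14.2% and 55.9% to 60.2% of genes. The tables hold 0 columns of a single library.

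Mean counts times the number of libraries were whole within 0.05 for 100% of genes, which gave summed tags. Folds use these sums and the totals that counts and TPM imply, 5.72e+06 to 5.96e+06 tags per library, with Clopper-Pearson (folds) and Poisson (levels) intervals at 95%, for counting error only. A day at 0 tags was set to 3 counts over its libraries. The background share is taken over the 4213 genes listed at any day.

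The members and lists were chosen with earlier results of these data known. All 5 members are named; for those listed at 3 or more days, the 3 genes of at least median abundance with the smallest mean absolute difference in the deposited log2 ratio; and per endocytosis list up to 4 others with the largest ratio at or above median abundance, without the abundance limit if fewer than 2 qualify. Other named genes were chosen after their values were seen. Some genes that the rule picks are not reported here. The 13 lists (6 endocytosis, 7 cell type) hold 256 genes, matched by gene ID, 6 through an older symbol, and 113 were listed at any day. Cardiomyocyte, fibroblast and epicardial, smooth muscle, endothelial, endoderm, neural and embryonal carcinoma cell markers were counted. Alternatives were the deposited ratio, a pseudocount of 1 TPM, a floor of 1 count, an abundance limit, an absolute log2 ratio of at least 2, exact symbols and, added later, no abundance limit for the most similar genes. The software was pandas 2.3.3, scipy 1.17.1, matplotlib 3.10.9 and numpy 2.4.6 under Python 3.11.15. The intervals were tested on data simulated with counting error only. That test held no spread between libraries and so does not bear on it.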

Additional observations from a re-analysis of the deposited data

How the results depend on the processing

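The deposited TPM and log2 ratio re-read the values behind the folds given here. Their agreement was thus set in advance, apart from days at 0 tags, and is no check. The 16 folds between later days stayed within their counting intervals with the deposited TPM, and 11 of 14 folds against day 1 did with the deposited log2 ratio. The other 3 are those of Cav1 at days 7, 10 and 14, whose size depends on what stands for 0 tags: 4.44, 6.61 and 8.48 on the log2 scale with a floor of 3 counts, 6.02, 8.20 and 10.06 with a floor of 1 count, and 8.54, 10.72 and 12.58 in the deposited ratio. With log2(TPM + 1), 26 of 30 folds stayed within them. The exceptions were Cav1, at 2.24, 4.16 and 5.96 on the log2 scale at days 7, 10 and 14 over day 1, and 3.72 at day 14 over day 7, since a pseudocount of 1 TPM shrinks low levels. Of the genes of the 6 endocytosis lists together, 15, 17, 22 and 35 were listed as higher and 9, 7, 9 and 5 as lower at days 4, 7, 10 and 14. At or above the median abundance, 9, 7, 10 and 21 were higher and 5, 3, 3 and 3 lower. With an absolute log2 ratio of at least 2, 5, 6, 9 and 14 were higher and 1, 3, 3 and 1 lower. Fewer genes can pass either limit. Exact symbols kept all 8 counts within 1.5 times. No symbol of a member had more than 1 entry, so no choice between entries arose. No paired analysis was possible because the columns hold day means and carry no replicate numbers, and leaving out single libraries was not possible for the same reason. Values on few tags, among them Cav1 at day 7, Sdpr, Rin3, Afp and Ttr, are limited by depth. The genes most like Cav1 and Lrp2 change when the abundance limit is dropped, an alternative chosen after seeing the data.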
